A study of Mus musculus with 12 samples.

Results

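The 10 genes described here are BMP ligands, BMP receptors, Id target genes and inhibitors of the pathway, taken by symbol from the count table of 24495 genes. All 10 were found, and all 10 were among the 15532 genes that passed the filter on low counts. Bone morphogenetic proteins (BMPs) are secreted ligands that bring together type I and type II receptor kinases, and the type I receptor then phosphorylates receptor Smads, which enter the nucleus and switch on target genes such as the Id genes. Id proteins bind E proteins and keep basic helix-loop-helix factors off DNA. In mouse embryonic stem cells the pathway is known for helping to hold off differentiation alongside LIF, and in the early embryo for its part in forming mesoderm and extraembryonic tissue.

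The series follows mouse embryonic stem cells (mESCs) as they differentiate, with or without knockdown of cathepsin L (Ctsl), a protease. Both lines derive from CCE mESCs that carry a Nanog-GFP reporter and were sorted for GFP, and both carry a lentiviral short hairpin RNA under puromycin selection: shSC, the scrambled control, labelled WT, and shCTSL, labelled CTSL KD. Each was sequenced undifferentiated in serum with LIF (Day 0) and as embryoid bodies grown without LIF in all-trans retinoic acid for 2 and 4 days (Day 2, Day 4), with 2 libraries in each of the 6 groups. The libraries hold 11171111 to 27155553 counts. The comparisons ask how the 10 genes differ between days within a line and between the lines on each day. Each genotype is 1 stable line, which hairpin the sequenced shCTSL cells carry is not stated in the sources at hand, and the study calls its RNA-seq replicates biological without saying whether the 2 libraries of a group came from separate cultures, so an adjusted p measures only the spread between these libraries. Fewer cells of a type and less RNA per cell cannot be told apart in bulk libraries.

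Ctsl stood at 137 and 147 normalized CPM in the shSC libraries of Day 0, 369 and 391 at Day 2 and 484 and 423 at Day 4. In shCTSL the values were 39.2 and 37.5 at Day 0, 211 and 155 at Day 2 and 257 and 253 at Day 4. The shCTSL libraries lay below the shSC libraries on every day, without overlap. The 2 shCTSL Day 2 libraries stand apart from the rest: the SD of their log2 ratio over genes was 0.604, against 0.178 to 0.269 in the other 5 groups. Replicate 1 of shCTSL Day 2 had 3.43% of its counts in the ribosomal gene Rn45s, against 0.170 to 1.43% in the other 11 libraries. Fitted log2 fold changes that rest on this group are therefore followed, in square brackets, by the values without its replicate 1 and without its replicate 2, except where these are given separately. Averaged over the days, Ctsl was lower in shCTSL, with a log2 fold change of −1.26 [−1.33, −1.19] (adjusted p = 0.000198, SE 0.08). By day it was −1.89 (adjusted p = 0.00246, SE 0.15) at Day 0 and −1.06 [−1.28, −0.86] (adjusted p = 0.0342, SE 0.14) at Day 2, both called, and −0.83 (adjusted p = 0.0896, SE 0.14) at Day 4, not called. The Day 0 call was lost without either shCTSL Day 0 library, at −1.93 and −1.86. The Day 2 call was lost without any 1 library outside shCTSL Day 2, at −1.10 to −1.02, in limma-voom, at −1.07, with only the libraries compared, at −1.05, and with a replicate block, at −1.06. Ctsl was called at Day 4 without both shCTSL Day 2 libraries, at −0.82, without either of them, by DESeq2, at −0.83, in limma-voom, at −0.83, with no filter and with only the libraries compared.

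Markers of the cell types that the cultures could hold were summed in every library. The gene said to lead a list had the highest mean normalized CPM over all 12 libraries, and was not the highest in every library. In normalized CPM, the 6 pluripotency markers, led by Pou5f1, summed to 5015 and 5156 (Day 0), 781 and 779 (Day 2) and 328 and 286 (Day 4) in shSC and 4762 and 4715, 844 and 725 and 252 and 297 in shCTSL. The sums were lower on each later day, with no overlap between days. The 5 retinoic acid response genes, led by Cyp26a1, came to 5.03 and 4.65 (Day 0), 1896 and 1867 (Day 2) and 1185 and 1219 (Day 4) in shSC and 4.998 and 5.16, 2608 and 2109.6 and 1249 and 1251 in shCTSL. These sums were low in the 4 Day 0 libraries and high in the 8 libraries of Day 2 and Day 4. The 7 markers of extraembryonic endoderm, led by Cubn, summed to 6.48 and 6.26 (Day 0), 107 and 118 (Day 2) and 429.7 and 338 (Day 4) in shSC and 6.56 and 7.58, 94.4 and 111 and 421 and 346 in shCTSL. The 8 fibroblast markers, led by Col3a1, summed to 11.3 and 10.3 (Day 0), 32.8 and 33.5 (Day 2) and 402 and 409.9 (Day 4) in shSC and 8.43 and 7.06, 25.6 and 28.5 and 428 and 407 in shCTSL. Both of these sums were highest in the Day 4 libraries. Col3a1 alone held 336 and 330 of the fibroblast sums at Day 4 in shSC and 351 and 328 in shCTSL. From Day 0 to Day 4, 6 of the 7 tested fibroblast markers were called higher and 1 lower in each line. The 5 trophoblast markers, led by Cdx2, summed to 1.30 and 2.23 (Day 0), 5.64 and 4.95 (Day 2) and 6.36 and 4.65 (Day 4) in shSC and 1.86 and 2.001, 7.57 and 6.43 and 3.95 and 4.67 in shCTSL, with Elf5, Prl3d1 and Tpbpa under 1 normalized CPM in all 12 libraries, as was the fibroblast marker Lum. No listed marker was at 0 in all libraries. The part of these cell types in the results below was not tested.

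Most of the 10 genes changed as the cells differentiated, and mostly upward. From Day 0 to Day 2 in shSC, 7 of 10 rose, where 29.3% of all genes were called higher, and 1 fell, where 25.3% were called lower. From Day 2 to Day 4, 5 rose (11.4% of all genes) and 1 fell (12.4%). Between Day 0 and Day 4, 8 rose (32.1%) and 1 fell (28.7%). In shCTSL, 5 rose from Day 0 to Day 2 (30.9% of all genes) and 1 fell (24.6%). From Day 2 to Day 4, 4 rose (11.0%) and 1 fell (12.4%), and between Day 0 and Day 4, 8 rose (32.3%) and 1 fell (27.6%). The median log2 fold change of the 10 genes from Day 0 to Day 4 was 2.14 in shSC and 1.67 in shCTSL, beside 0.03 and 0.06 over all genes tested. The comparisons share libraries. In shCTSL, 8 of 10 were called from Day 0 to Day 2 without replicate 1 of Day 2 (56.5% of all genes) and 6 without replicate 2 (57.9%), and from Day 2 to Day 4 there were 6 (25.3%) and 5 (39.2%).

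**Figure D1:**
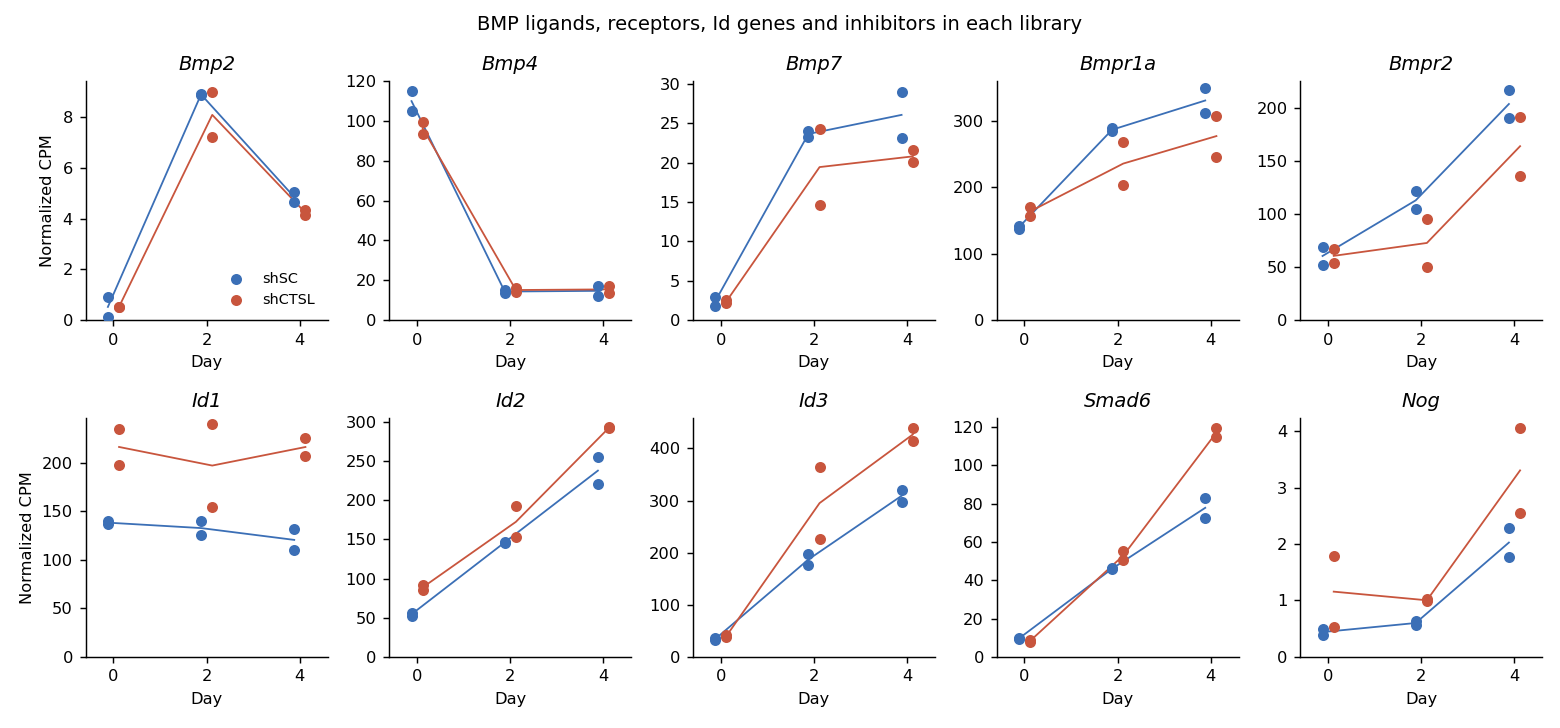
Normalized CPM of the 10 genes (vertical axes, linear scale) at Day 0, Day 2 and Day 4 (horizontal axes) in shSC and shCTSL. Points are libraries and lines join group means; Bmp4 is highest in the Day 0 libraries, and Bmp7, Id2, Id3 and Smad6 are lowest there.

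Among the ligands, Bmp4 fell in both lines while Bmp2 and Bmp7 rose. Bmp4 (chromosome 14, 47003195 to 47010344 in mm9) encodes a ligand best known for inducing mesoderm. Bmp4 stood at 105 and 115 normalized CPM in the shSC libraries of Day 0, 15.1 and 13.6 at Day 2 and 12.3 and 17.1 at Day 4. In shCTSL the values were 93.3 and 99.4 at Day 0, 16.1 and 14.1 at Day 2 and 13.8 and 17.1 at Day 4. The 4 Day 0 libraries were all far above the 8 later ones, in which the days overlapped. By Day 2 Bmp4 fell, with a log2 fold change of −2.94 (adjusted p = 4.05e-07, SE 0.17) in shSC and −2.68 [−2.73, −2.57] (adjusted p = 7.28e-07, SE 0.17) in shCTSL. At Day 4 it was still lower than at Day 0, at −2.91 (adjusted p = 2.66e-07, SE 0.18) and −2.64 (adjusted p = 5.01e-07, SE 0.17). The predicted genes Gm15217 and Gm15222 overlap Bmp4 on the other strand, and their reads cannot be told apart from its own because the strand setting of the counting is not stated in the sources at hand.

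Bmp2 (chromosome 2, 133377895 to 133388621) encodes a close relative of the Bmp4 protein. The shSC libraries held 0.915 and 0.124 normalized CPM of Bmp2 at Day 0, 8.86 and 8.93 at Day 2 and 4.64 and 5.06 at Day 4, and the shCTSL libraries 0.522 and 0.527, then 7.20 and 8.98, then 4.33 and 4.13. Its Day 0 libraries were the lowest, its Day 2 libraries were highest, and its Day 4 libraries lay between them without overlap. Bmp2 rose from Day 0 to Day 2 by 4.18 (adjusted p = 1.31e-05, SE 0.42) on the log2 scale in shSC and 3.94 [4.12, 3.77] (adjusted p = 2.82e-05, SE 0.44) in shCTSL. It then fell from Day 2 to Day 4, with log2 fold changes of −0.88 (adjusted p = 0.0452, SE 0.29) and −0.94 [−1.11, −0.77] (adjusted p = 0.0379, SE 0.30). From Day 0 to Day 4 the rise was 3.30 (adjusted p = 8.01e-05, SE 0.44) in shSC and 2.996 (adjusted p = 0.00024, SE 0.47) in shCTSL. The fall to Day 4 was a narrow call: in both lines it was lost without any 1 of the 4 shSC libraries of Day 2 and Day 4 or any 1 of the 4 shCTSL libraries of Day 0 and Day 4, at log2 fold changes of −0.94 to −0.81 in shSC and −0.98 to −0.91 in shCTSL. It was also lost with a replicate block in shSC, at −0.88, and in shCTSL with a replicate block, at −0.94, in limma-voom, at −0.95, and with only the libraries compared, at −0.95.

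Bmp7 (chromosome 2, 172693513 to 172765822) encodes a further ligand, which can pair with Bmp2 or Bmp4 proteins. In normalized CPM, Bmp7 was at 2.97 and 1.80 (Day 0), 23.3 and 24.0 (Day 2) and 23.1 and 29.0 (Day 4) in shSC. The matching shCTSL values were 2.54 and 2.21, 14.6 and 24.3 and 21.5 and 20.0. All Day 0 libraries were below all later ones, and Day 2 and Day 4 overlapped in both lines. Bmp7 rose by Day 2, with a log2 fold change of 3.33 (adjusted p = 5.22e-06, SE 0.29) in shSC and 3.03 [3.38, 2.60] (adjusted p = 1.27e-05, SE 0.30) in shCTSL. Against Day 0 it was higher at Day 4 by 3.46 (adjusted p = 2.84e-06, SE 0.29) and 3.12 (adjusted p = 7.89e-06, SE 0.30). At Day 4 both shCTSL libraries were below both shSC libraries, a log2 fold change of −0.32 (adjusted p = 0.534, SE 0.24) that was not called.

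Both receptors rose between Day 0 and Day 4, whichever the line. Bmpr1a (chromosome 14, 35223920 to 35316527), a type I receptor, overlaps the predicted gene Gm17110 on the other strand, so the reads of these genes cannot be told apart. Bmpr1a stood at 142 and 137 normalized CPM in the shSC libraries of Day 0, 285 and 289 at Day 2 and 349.5 and 312 at Day 4. In shCTSL the values were 157 and 170.3 at Day 0, 203 and 268 at Day 2 and 308 and 246 at Day 4. The Day 0 libraries were lowest in each line, and Day 2 and Day 4 overlapped in shCTSL. In shSC, Bmpr1a rose from Day 0 to Day 2 by 1.04 (adjusted p = 0.000181, SE 0.15) on the log2 scale and stood higher at Day 4 than at Day 0 by 1.24 (adjusted p = 4.07e-05, SE 0.15). In shCTSL the Day 2 difference was 0.53 (adjusted p = 0.0108, SE 0.15), under the 1.5-fold cutoff, and Day 4 was higher than Day 0 by 0.76 (adjusted p = 0.00121, SE 0.15). Without shCTSL Day 2 replicate 1 the Day 2 difference was 0.76 and was called, as it was without shCTSL Day 0 replicate 2, at 0.59; without shCTSL Day 2 replicate 2 it was 0.32 and was not. The difference between the lines in this change was not called (adjusted p = 0.437), but was without shCTSL Day 2 replicate 2, at −0.72. Bmpr1a was not called from Day 2 to Day 4 in either line, at 0.21 (adjusted p = 0.338, SE 0.15) in shSC and 0.23 [0.02, 0.44] (adjusted p = 0.271, SE 0.15) in shCTSL.

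Bmpr2 (chromosome 1, 59821481 to 59927703) encodes the type II receptor of the BMP ligands. The shSC libraries held 68.4 and 52.2 normalized CPM of Bmpr2 at Day 0, 104 and 121 at Day 2 and 217 and 190.0 at Day 4, and the shCTSL libraries 53.8 and 67.1, then 50.2 and 94.9, then 191 and 136. The Day 4 libraries were highest in both lines, and Day 0 and Day 2 overlapped in shCTSL, where replicate 1 of Day 2 was the lowest of all. In shSC, Bmpr2 rose by 0.90 (adjusted p = 0.0169, SE 0.28) on the log2 scale from Day 0 to Day 2 and by 0.85 (adjusted p = 0.0417, SE 0.28) from Day 2 to Day 4. Between Day 0 and Day 4 it rose by 1.75 (adjusted p = 0.000321, SE 0.29) in shSC and 1.44 (adjusted p = 0.00121, SE 0.28) in shCTSL. In shCTSL the step from Day 0 to Day 2 was 0.27 (adjusted p = 0.424, SE 0.28) and not called, nor was its difference from shSC (adjusted p = 0.539), and Day 4 was above Day 2 by 1.17 [0.76, 1.70] (adjusted p = 0.0109, SE 0.28). Without shCTSL Day 2 replicate 1 the first step in shCTSL was 0.70 and called, and without replicate 2 it was −0.26 and not called. Its difference from shSC was called without replicate 2, at −1.16. The first step in shSC was lost without shSC Day 0 replicate 2, at 0.76, or shSC Day 2 replicate 2, at 0.79. The second step in shSC was lost without any 1 of the 6 shSC libraries or either shCTSL Day 0 library, at 0.74 to 0.96, and in shCTSL without Day 4 replicate 1, at 0.90. It was also lost in shSC with a replicate block, at 0.86, and in shCTSL in limma-voom, at 1.20, and with only the libraries compared, at 1.16.

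The Id genes, direct targets of the pathway, went different ways across the days: Id2 and Id3 rose in both lines, and Id1 was not called. Id1 lies on chromosome 2, 152561987 to 152563146. Id1 stood at 139.8 and 137 normalized CPM in the shSC libraries of Day 0, 139.9 and 125 at Day 2 and 109.6 and 131 at Day 4. In shCTSL the values were 234 and 198 at Day 0, 239.9 and 154 at Day 2 and 207 and 226 at Day 4. Within each line the days overlapped except that both shSC Day 4 libraries were below both of Day 0, while on each day both shCTSL libraries were above both shSC libraries. Id1 was not called between any 2 days in either line, with adjusted p from 0.368 to 0.998.

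Id2 (chromosome 12, 25778666 to 25780957) increased at each step. In normalized CPM, Id2 was at 56.2 and 52.5 (Day 0), 147 and 146 (Day 2) and 221 and 255 (Day 4) in shSC. The matching shCTSL values were 92.3 and 85.1, 192 and 153 and 293 and 292. The days did not overlap within either line, and on each day the shCTSL libraries were above those of shSC. In shSC, Id2 rose by 1.43 (adjusted p = 6.58e-06, SE 0.13) on the log2 scale from Day 0 to Day 2, by 0.70 (adjusted p = 0.00223, SE 0.13) from Day 2 to Day 4 and by 2.13 (adjusted p = 3.23e-07, SE 0.13) from Day 0 to Day 4. The same steps in shCTSL were 0.96 [0.82, 1.12] (adjusted p = 9.74e-05, SE 0.13), 0.76 [0.92, 0.60] (adjusted p = 0.00149, SE 0.13) and 1.72 (adjusted p = 1.29e-06, SE 0.13), of which that from Day 2 to Day 4 was not called with only the libraries compared, at 0.75.

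Id3 (chromosome 4, 135699412 to 135701670) had the largest fold change of the 3 Id genes from Day 0 to Day 4 in both lines. The shSC libraries held 35.1 and 32.9 normalized CPM of Id3 at Day 0, 197 and 176 at Day 2 and 298 and 320.5 at Day 4, and the shCTSL libraries 41.4 and 38.3, then 364 and 226, then 415 and 439. Day 0 was lowest and Day 4 highest in each line without overlap, and on each day the shCTSL libraries were above the shSC libraries. From Day 0 to Day 2 Id3 rose by 2.46 (adjusted p = 2.69e-06, SE 0.20) on the log2 scale in shSC and 2.89 [2.54, 3.19] (adjusted p = 1.05e-06, SE 0.20) in shCTSL. By Day 4 it was above Day 0 by 3.18 (adjusted p = 3.64e-07, SE 0.20) and 3.42 (adjusted p = 2.64e-07, SE 0.20). From Day 2 to Day 4 it rose in shSC by 0.73 (adjusted p = 0.0136, SE 0.18), a call lost without any 1 of the 4 shSC libraries of those days, at 0.64 to 0.81. In shCTSL this step was 0.53 (adjusted p = 0.0512, SE 0.18) and not called, and the difference between the lines was not called (adjusted p = 0.99996). Without shCTSL Day 2 replicate 1 it was 0.89 and called, and without replicate 2 it was 0.23 and not called.

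Both inhibitors rose as the cells differentiated. Smad6 (chromosome 9, 63800953 to 63869866), an inhibitory Smad that BMP signalling itself induces, was called higher at each step in both lines. Smad6 stood at 9.61 and 9.48 normalized CPM in the shSC libraries of Day 0, 46.4 and 45.7 at Day 2 and 72.7 and 83.0 at Day 4. In shCTSL the values were 7.61 and 8.95 at Day 0, 55.3 and 50.5 at Day 2 and 115 and 119 at Day 4. Day 0 was lowest and Day 4 highest in each line, with no overlap between days. Smad6 rose from Day 0 to Day 2 by 2.27 (adjusted p = 2.58e-07, SE 0.12) on the log2 scale in shSC and 2.68 [2.67, 2.76] (adjusted p = 1.20e-07, SE 0.13) in shCTSL. From Day 2 to Day 4 it rose by 0.76 (adjusted p = 0.000746, SE 0.11) and 1.15 [1.19, 1.08] (adjusted p = 6.55e-05, SE 0.11), which brought the whole rise to 3.03 (adjusted p = 2.79e-08, SE 0.13) in shSC and 3.83 (adjusted p = 1.16e-08, SE 0.13) in shCTSL.

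Nog (chromosome 11, 89161952 to 89163873) encodes Noggin, a secreted protein that binds BMP ligands and keeps them from their receptors. In normalized CPM, Nog was at 0.381 and 0.496 (Day 0), 0.631 and 0.569 (Day 2) and 1.77 and 2.29 (Day 4) in shSC. The matching shCTSL values were 0.522 and 1.79, 0.985 and 1.02 and 4.06 and 2.56. The Day 4 libraries were highest in both lines, with 1 shCTSL Day 0 library above Day 2. Nog was not called from Day 0 to Day 2 in shSC (adjusted p = 0.535) or shCTSL (adjusted p = 0.877). From Day 2 to Day 4 it rose by 1.72 (adjusted p = 0.0131, SE 0.43) on the log2 scale in shSC and 1.71 [1.66, 1.73] (adjusted p = 0.00904, SE 0.39) in shCTSL. From Day 0 to Day 4 the rise was 2.16 (adjusted p = 0.00369, SE 0.51) and 1.61 (adjusted p = 0.00766, SE 0.43). The step from Day 2 was lost in shSC without either shSC Day 2 library or Day 4 replicate 2, at 1.54 to 1.80, and in shCTSL without Day 4 replicate 1, at 1.34, in limma-voom, at 1.64, and with only the libraries compared, at 1.69. In shCTSL the rise from Day 0 was lost without Day 0 replicate 1, at 0.88, or Day 4 replicate 1, at 1.24.

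The order of the levels, in normalized CPM per kb of exon (mean ± SD, n = 2), changed between Day 0 and Day 4. The counts are per RefSeq gene and the lengths are from GENCODE M1, which starts Id3 325 bases before the RefSeq start used below. The order of genes at close levels, such as Id2 and Id3, holds for these lengths only. In shSC at Day 0, Id1 led at 119 ± 1.92, followed by Bmp4 at 49.5 ± 3.16, Id2 at 42.8 ± 2.07 and Bmpr1a at 22.0 ± 0.539. Id3 at 18.997 ± 0.887 and Bmpr2 at 17.2 ± 3.26 came next and overlapped. Smad6 was at 3.04 ± 0.0286 and Bmp7 at 0.593 ± 0.207 per kb, and the lowest, Nog at 0.228 ± 0.0421 and Bmp2 at 0.146 ± 0.157, overlapped. At Day 4 in shSC, Id2 at 187 ± 19.2 and Id3 at 173 ± 9.05 per kb led and overlapped, ahead of Id1 at 104 ± 13.3. The receptors Bmpr2 at 58.0 ± 5.36 and Bmpr1a at 52.1 ± 4.17 overlapped, as did the ligands Bmp4 at 6.61 ± 1.504 and Bmp7 at 6.48 ± 1.03, with Smad6 between these pairs at 24.8 ± 2.33. Bmp2 at 1.36 ± 0.0840 and Nog at 1.06 ± 0.192 per kb were lowest. At Day 2 in shSC the 3 Id genes led, at 115 ± 0.650 for Id2, 114 ± 8.89 for Id1 and 104 ± 8.41 for Id3, where Id1 overlapped each of the others and Id2 lay above Id3, ahead of Bmpr1a at 45.1 ± 0.484. In shCTSL at Day 0 the order began with Id1 at 186 ± 22.1, Id2 at 69.8 ± 3.99 and Bmp4 at 43.3 ± 1.94 per kb, without overlap. At Day 2 in shCTSL, Id1 at 169.9 ± 52.2, Id3 at 165 ± 54.1 and Id2 at 136 ± 22.0 overlapped. At Day 4 it began with Id3 at 238 ± 9.44 and Id2 at 230.5 ± 0.679, which did not overlap, and Id1 at 186 ± 11.4.

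Between the lines, the 3 Id genes and Nog were higher in shCTSL on every day by position of the libraries, but the main edgeR fit called none of these differences on any day. The share of all genes that were higher on every day is not given here, so this recurrence has no background to be read against. Both shCTSL libraries were above both shSC libraries for 5 of the 10 genes at Day 0 (22.7% of all genes), 5 at Day 2 (22.7%) and 5 at Day 4 (30.0%), and below them for 2 (28.6%), 2 (22.7%) and 3 (31.5%). edgeR called 0 of the 10 genes at Day 0 (0.0386% of all genes were called), 0 at Day 2 (0.0644%) and 0 at Day 4 (0.0129%). An unadjusted p under 0.05 was reached by 2, 3 and 4 of the 10, where 7.26, 19.4 and 12.2% of all genes did so, and DESeq2 called 1 (Id2), 0 and 2 (Id1 and Smad6), beside 0.309, 0.805 and 0.850% of all genes. Averaged over days 1 of 10 was called, against 0.270% of all genes. For the difference between the lines in a change between days, edgeR called 0 of 10 from Day 0 to Day 2 (0% of all genes), 0 from Day 2 to Day 4 (0%) and 0 from Day 0 to Day 4 (0.00644%). There the counts at an unadjusted p under 0.05 were 3, 1 and 3, where 11.0, 4.85 and 6.71% of all genes did so, and DESeq2 called 0, 0 and 0, beside 0.155, 0.0708 and 0.180%. In limma-voom with library weights the counts on the 3 days were 2 with Id1 and Id2, 0, and 2 with Id1 and Smad6 (1.64, 0 and 4.65% of all genes), averaged over days 1 (0.824%), and in the line differences 0, 0 and 1 (0.0129, 0 and 0.837%). Without replicate 1 of shCTSL Day 2, edgeR called 2, 0 and 2 of the 10 on the 3 days (1.33, 0.604 and 5.82% of all genes), 1 averaged over days (0.761%) and 1, 1 and 1 in the line differences (1.89, 3.57 and 1.63%). Without replicate 2 it called 2, 4 and 2 (1.35, 31.6 and 5.83%), then 2 (7.68%), then 3, 1 and 1 (26.04, 14.7 and 1.69%).

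Id1, called between the lines averaged over days, was higher in shCTSL. On each day its 2 shCTSL libraries were above its 2 shSC libraries, with values from 154 to 239.9 normalized CPM in shCTSL and 109.6 to 139.9 in shSC. Its average over days had a log2 fold change of 0.69 (adjusted p = 0.0407, SE 0.11) and a 95% interval of 0.44 to 0.93. This call was lost without any 1 of the 6 shSC libraries, the 4 shCTSL libraries of Day 0 and Day 4 or replicate 1 of shCTSL Day 2, at log2 fold changes of 0.58 to 0.73, and stood without replicate 2 of shCTSL Day 2, at 0.78. It was also lost with a replicate block, at 0.68. By day, the log2 fold change of Id1 was 0.65 (adjusted p = 0.443, SE 0.19) at Day 0, 0.57 (adjusted p = 0.222, SE 0.19) at Day 2 and 0.84 (adjusted p = 0.199, SE 0.19) at Day 4, none of them called in the main edgeR fit. DESeq2 called Id1 at Day 4, at 0.85. It was also called in limma-voom at Day 0, at 0.64, and Day 4, at 0.86, with only the libraries compared at Day 0, at 0.67, and Day 4, at 0.87, and with no filter on low counts at Day 4, at 0.81. With both shCTSL Day 2 libraries left out of the fit, Id1 was called at Day 0, at 0.66, and at Day 4, at 0.86, and both calls also appeared without replicate 1 alone and without replicate 2 alone. At Day 2, Id1 was at 0.23 without replicate 1, not called, and at 0.85 without replicate 2, called.

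Id2 was 92.3 and 85.1 normalized CPM in shCTSL at Day 0 against 56.2 and 52.5 in shSC. The libraries of the lines did not overlap, and the log2 fold change was 0.71 (adjusted p = 0.180, SE 0.13), not called in the main edgeR fit. It was called by DESeq2 at 0.73, in limma-voom at 0.71, with only the libraries compared at 0.73 and without both shCTSL Day 2 libraries at 0.72, as it was without either of them alone. At Day 2 the difference of Id2 was 0.24 [0.07, 0.39] (adjusted p = 0.295, SE 0.13) and at Day 4 0.30 (adjusted p = 0.389, SE 0.13). Averaged over days it was 0.42 [0.37, 0.47] (adjusted p = 0.0485, SE 0.07), under the 1.5-fold cutoff. Id3 differed between the lines by 0.23 (adjusted p = 0.905, SE 0.19) on the log2 scale at Day 0, 0.66 (adjusted p = 0.222, SE 0.18) at Day 2 and 0.47 (adjusted p = 0.370, SE 0.18) at Day 4, and by 0.45 [0.33, 0.55] (adjusted p = 0.105, SE 0.11) averaged over days, none called. At Day 2 its value was 364 and 226 normalized CPM in the shCTSL libraries and 197 and 176 in those of shSC. Replicate 1 of shCTSL was the higher, and the Day 2 difference was 0.96, called, without replicate 2, and 0.29, not called, without replicate 1. The difference between the lines in the change from Day 0 to Day 2 was called for Id3 without replicate 2, at 0.73, and for Id2 without replicate 1, at −0.65.

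Smad6 lay on different sides by day, with 7.61 and 8.95 normalized CPM in shCTSL against 9.61 and 9.48 in shSC at Day 0 and 115 and 119 against 72.7 and 83.0 at Day 4. Both shCTSL libraries were below both shSC libraries at Day 0 and above them at Day 2 and Day 4. The log2 fold change of Smad6 was −0.21 (adjusted p = 0.832, SE 0.13) at Day 0, 0.20 [0.14, 0.26] (adjusted p = 0.318, SE 0.11) at Day 2 and 0.59 (adjusted p = 0.148, SE 0.11) at Day 4, with 0.19 [0.18, 0.21] (adjusted p = 0.186, SE 0.07) averaged over days, none called in the main edgeR fit. The rise of Smad6 from Day 0 to Day 4 was larger in shCTSL than in shSC by 0.80 (adjusted p = 0.489, SE 0.17) on the log2 scale, with a 95% interval of 0.41 to 1.19, and was not called. Without both shCTSL Day 2 libraries, the Day 4 difference was 0.60 and the difference in the rise 0.81, and both were called, as they were without either library alone. Smad6 was also called at Day 4 by DESeq2, at 0.59, in limma-voom, at 0.60, and with only the libraries compared, at 0.61. The difference in the rise was called in limma-voom, at 0.82, and with only the libraries compared, at 0.81.

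Nog, which in these data had few counts, was at 4.06 and 2.56 normalized CPM in shCTSL and 1.77 and 2.29 in shSC at Day 4. The shCTSL libraries were above those of shSC on each day. At Day 0 the shCTSL libraries were far apart, at 0.272 and 0.932 normalized CPM per kb of exon, against 0.198 and 0.258 in shSC. The log2 fold change of Nog was 0.72 (adjusted p = 0.443, SE 0.36) at Day 4 and 0.91 (adjusted p = 0.161, SE 0.28) averaged over days, neither called. The average over days was called without shCTSL Day 2 replicate 1, at 0.92, and without replicate 2, at 0.89. Bmpr2 differed by −0.63 (adjusted p = 0.252, SE 0.28) at Day 2, −0.31 (adjusted p = 0.588, SE 0.28) at Day 4 and −0.31 [−0.18, −0.50] (adjusted p = 0.255, SE 0.16) in the mean. At Day 2 the Bmpr2 values were 50.2 and 94.9 normalized CPM in shCTSL and 104 and 121 in shSC. The lower shCTSL value was that of replicate 1, and the Day 2 difference was −1.17, called, without replicate 2 and −0.24, not called, without replicate 1. Bmpr1a differed by −0.28 [−0.09, −0.50] (adjusted p = 0.295, SE 0.15) at Day 2 and −0.26 (adjusted p = 0.476, SE 0.15) at Day 4. Bmpr1a lay on different sides by day: its shCTSL libraries were above those of shSC at Day 0 and below them at Day 2 and Day 4. The main edgeR fit called none of these differences. Averaged over days Bmp7 differed by −0.19 [−0.07, −0.33] (adjusted p = 0.467, SE 0.16). At Day 2 its difference was −0.28 (adjusted p = 0.486, SE 0.24), not called. This was −0.70, called, without replicate 2 of shCTSL, and 0.05, of the other sign and not called, without replicate 1. Bmp2 and Bmp4 were called between the lines on no day, in edgeR or DESeq2.

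**Figure D2:**
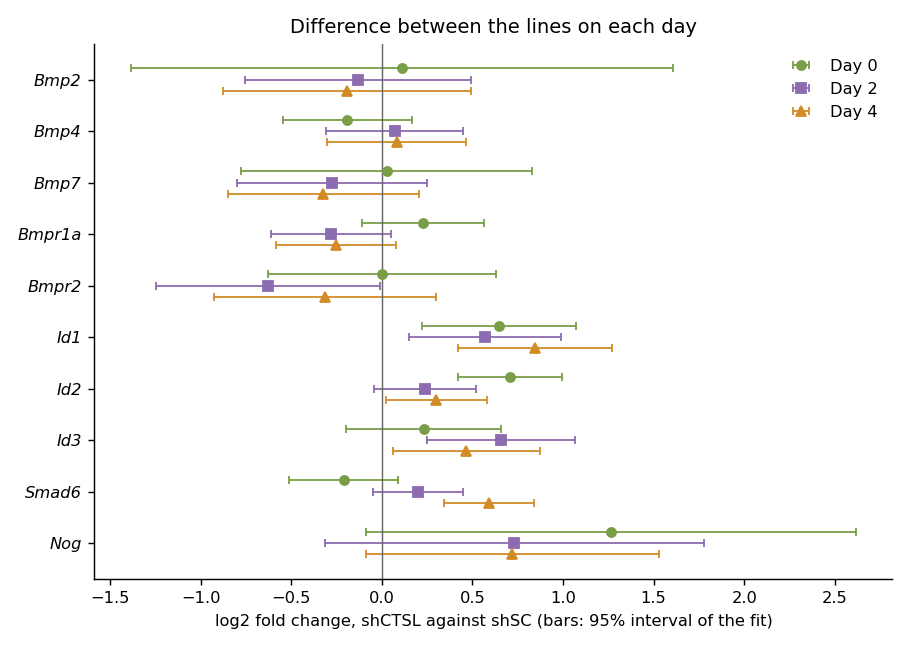
Fitted log2 fold change of the 10 genes, shCTSL against shSC (horizontal axis), at Day 0, Day 2 and Day 4. Points are estimates from 2 libraries a group and bars their 95% intervals, not adjusted over genes. Id1 lies above 0 on each day.

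A wider list of 55 other genes of the pathway, 49 of them tested, also moved mostly upward over the days. From Day 0 to Day 4 in shSC, 38 were called higher (32.1% of all genes) and 5 lower (28.7%), with a median log2 fold change of 2.17 beside 0.03 over all genes, and in shCTSL 37 (32.3%) and 4 (27.6%), with a median of 1.90 beside 0.06. From Day 0 to Day 2 the counts were 30 (29.3%) and 4 (25.3%) in shSC, with a median of 1.31 beside 0.02, and 27 (30.9%) and 4 (24.6%) in shCTSL, with 0.90 beside 0.08. For Day 4 against Day 2 they were 15 (11.4%) and 6 (12.4%) in shSC, with 0.33 beside 0.02, and 17 (11.0%) and 6 (12.4%) in shCTSL, with 0.32 beside −0.02. The medians of the list were the same with Bmp3, which had no counts at Day 0 in shSC, set to its bound. In shCTSL, 38 of the listed genes were called from Day 0 to Day 2 without replicate 1 of Day 2 (56.5% of all genes) and 31 without replicate 2 (57.9%), and from Day 2 to Day 4 there were 25 (25.3%) and 26 (39.2%). By role, from Day 0 to Day 4 in shSC, 10 of 12 tested extracellular modulators were called higher and 0 lower, 8 of 9 receptors and co-receptors higher and 1 lower, 5 of 9 other ligands higher and 3 lower, and 3 of 5 Smads higher and 1 lower. Among inhibitors in the cell 4 of 5 were called higher, among other target genes 5 of 6, and among the E proteins bound by Id 3 of 3, with 0 lower in each. In shCTSL the same lists had 10 higher and 0 lower, 8 and 1, 5 and 3, 3 and 0, 2 and 0, 6 and 0, and 3 and 0.

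Gdf3, a ligand expressed in pluripotent cells, was among the 3 lowest of this list from Day 0 to Day 4 in both lines. The shSC libraries held 184 and 182 normalized CPM of Gdf3 at Day 0, 24.3 and 21.3 at Day 2 and 7.65 and 6.87 at Day 4, and the shCTSL libraries 209 and 185, then 39.9 and 24.9, then 7.20 and 9.20. Every later library was below every Day 0 library. Gdf3 fell from Day 0 to Day 4, with log2 fold changes of −4.65 (adjusted p = 8.54e-08, SE 0.23) in shSC and −4.58 (adjusted p = 9.93e-08, SE 0.23) in shCTSL. It was also among the lowest from Day 0 to Day 2, at −3.01 in shSC and −2.61 [−2.94, −2.30] in shCTSL, and from Day 2 to Day 4 in shSC, at −1.65. The ligand gene Bmp8b fell from Day 0 to Day 4 by log2 fold changes of −2.76 in shSC and −3.06 in shCTSL, and from Day 0 to Day 2 by −2.25 and −1.84 [−1.42, −2.50]. Bmp8a, a close relative, was at −1.73 by Day 2 and −2.70 by Day 4 in shSC. The first of these Bmp8a calls was lost without shSC Day 0 replicate 2, at −1.43. Hfe2, which encodes the co-receptor hemojuvelin, fell from Day 2 to Day 4 at −2.41 in shSC and −3.32 [−2.80, −3.77] in shCTSL, and was at −3.53 from Day 0 to Day 4 in shCTSL. The shSC call of Hfe2 was lost without shSC Day 4 replicate 1, at −2.43, or replicate 2, at −2.40, and its shCTSL call with only the libraries compared, at −3.35. The Day 2 call of Bmp8b in shCTSL was lost in limma-voom, at −1.86.

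Bmper, a secreted modulator of BMP binding, was among the 3 highest of the list from Day 0 to Day 4 in both lines. Bmper stood at 0.0762 and 0.186 normalized CPM in the shSC libraries of Day 0, 4.65 and 3.90 at Day 2 and 51.2 and 61.2 at Day 4. In shCTSL the values were 0.298 and 0.105 at Day 0, 3.14 and 3.28 at Day 2 and 66.0 and 57.0 at Day 4. The days did not overlap, and Day 4 was highest. Bmper rose from Day 0 to Day 4 by 8.61 (adjusted p = 1.11e-08, SE 0.30) on the log2 scale in shSC and 8.10 (adjusted p = 1.50e-08, SE 0.29) in shCTSL, and from Day 2 to Day 4 by 3.71 and 4.26 [4.20, 4.29]. Smad9, a receptor Smad, was also among the highest from Day 0 to Day 4. In normalized CPM, Smad9 was at 0.229 and 0.186 (Day 0), 7.14 and 5.82 (Day 2) and 25.3 and 26.4 (Day 4) in shSC. The matching shCTSL values were 0.373 and 0.211, 4.80 and 8.73 and 29.6 and 25.7. The Day 0 libraries were lowest and the Day 4 libraries highest, and Smad9 rose by 6.93 (adjusted p = 1.96e-07, SE 0.40) and 6.47 (adjusted p = 2.95e-07, SE 0.39). Bmp5, a ligand gene, rose from Day 2 to Day 4 by 3.88 in shSC and 4.97 [4.52, 5.86] in shCTSL, and from Day 0 to Day 4 by 6.14 in shCTSL.

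The target gene Msx1 peaked at Day 2. The shSC libraries held 0.305 and 0.248 normalized CPM of Msx1 at Day 0, 24.8 and 17.0 at Day 2 and 5.08 and 5.89 at Day 4, and the shCTSL libraries 0.224 and 0.316, then 16.9 and 33.5, then 5.63 and 5.31. All Day 2 libraries were above all others. Msx1 rose from Day 0 to Day 2 by 6.22 (adjusted p = 2.16e-06, SE 0.48) on the log2 scale in shSC and 6.56 [7.004, 5.97] (adjusted p = 2.12e-06, SE 0.50) in shCTSL, and fell from Day 2 to Day 4, with −1.94 and −2.21 [−2.64, −1.63]. Rgma, a co-receptor gene, rose from Day 0 to Day 2 by 5.71 (adjusted p = 2.43e-08, SE 0.21) in shSC and 5.76 [6.03, 5.49] (adjusted p = 2.98e-08, SE 0.22) in shCTSL. Bmp3, a ligand gene listed at 0 in the shSC Day 0 libraries, was at least 33.5-fold higher at Day 2 and at least 16.6-fold higher at Day 4, against a floor of 3 counts over the group. In shCTSL Bmp3 had 109 counts at Day 2 and 1 at Day 0, a ratio of 62.8 (95% counting interval 11.0 to 2503) after scaling. Grem1, which encodes a secreted inhibitor of BMP ligands, was among the highest from Day 2 to Day 4 in shSC, at 3.92. In shCTSL Grem1 had 10 counts at Day 0, 1 at Day 2 and 69 at Day 4, a ratio of 17.4 (95% counting interval 2.47 to 753) between Day 0 and Day 2 and 70.7 (95% counting interval 12.3 to 2831) between Day 4 and Day 2. The ligand gene Gdf7 had 33 counts at Day 2 and 3 at Day 4 in shCTSL, a ratio of 10.7 (95% counting interval 3.37 to 54.7). These intervals and the floor cover counting error only. The ratios pool the 2 libraries of a group. For those that rest on shCTSL Day 2, whose libraries stand apart, values without 1 of its libraries are not given.

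Between the lines the main edgeR fit called 0 of the 49 tested genes of the wider list on each of the 3 days, 0 averaged over days and 0 in each of the 3 line differences. An unadjusted p under 0.05 was reached by 4 at Day 0, 16 at Day 2, 8 at Day 4 and 10 in the mean, where 7.26, 19.4, 12.2 and 22.6% of all genes did so. In the line differences for Day 2 against Day 0, Day 4 against Day 2 and Day 4 against Day 0 it was reached by 4, 7 and 7, where 11.0, 4.85 and 6.71% of all genes did so. DESeq2 called 0, 0, 2 and 0 (beside 0.309, 0.805, 0.850 and 0.824% of all genes), and 0, 0 and 1 (0.155, 0.0708 and 0.180%). The counts in limma-voom with library weights were 1, 0, 3 and 0 (1.64, 0, 4.65 and 0.824%), and 0, 0 and 1 (0.0129, 0 and 0.837%). Without replicate 1 of shCTSL Day 2, edgeR called 1, 0 and 5 of the listed genes on the 3 days (1.33, 0.604 and 5.82% of all genes), 0 averaged over days (0.761%) and 1, 2 and 2 in the line differences (1.89, 3.57 and 1.63%). Leaving out replicate 2 gave 1, 15 and 4 (1.35, 31.6 and 5.83%), then 3 (7.68%), then 8, 6 and 2 (26.04, 14.7 and 1.69%). Without both of these libraries it called 1 at Day 0 (1.37%), 5 at Day 4 (5.89%) and 2 in the line difference for Day 4 against Day 0 (1.67%). With only the libraries compared these 3 counts were 1 (2.04%), 4 (4.83%) and 2 (0.988%), and no filter on low counts gave 1 at Day 4 (0.524%).

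Promoter sequence was at hand for 6 of the 10 genes: Bmp4, Bmpr1a, Bmpr2, Id2, Id3 and Smad6. Each promoter runs from 250 bases before to 50 bases after the transcription start, by RefSeq on GRCm38.p6, and was placed in mm9 by its exact match. Bmp2, Bmp7, Id1 and Nog are not in the table. The motifs looked for on both strands were GGCGCC, which Smads are known to bind in BMP targets, its relative GGAGCC, which reads as GGCTCC on the other strand, and GTCTG, a form of the Smad-binding element that reads as CAGAC on the other strand. The share of all 32851 promoters with a match was 11.9% for GGCGCC, 30.8% for GGAGCC and 49.6% for GTCTG. The 3 promoters printed are those of Id2, Id3 and Smad6, genes known to be induced by BMP signalling, with capitals marking the motifs.
Id2: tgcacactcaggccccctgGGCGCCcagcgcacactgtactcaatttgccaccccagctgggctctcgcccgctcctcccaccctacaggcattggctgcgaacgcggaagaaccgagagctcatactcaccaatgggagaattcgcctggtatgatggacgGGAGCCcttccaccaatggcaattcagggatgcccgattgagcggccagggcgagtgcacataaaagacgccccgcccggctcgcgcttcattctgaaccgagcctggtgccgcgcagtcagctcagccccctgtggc
Id3: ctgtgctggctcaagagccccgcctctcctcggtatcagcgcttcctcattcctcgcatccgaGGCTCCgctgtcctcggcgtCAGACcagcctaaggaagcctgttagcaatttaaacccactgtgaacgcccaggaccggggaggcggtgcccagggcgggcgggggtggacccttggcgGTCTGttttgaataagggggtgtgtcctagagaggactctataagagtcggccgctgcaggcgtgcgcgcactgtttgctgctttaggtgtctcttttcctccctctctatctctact
Smad6: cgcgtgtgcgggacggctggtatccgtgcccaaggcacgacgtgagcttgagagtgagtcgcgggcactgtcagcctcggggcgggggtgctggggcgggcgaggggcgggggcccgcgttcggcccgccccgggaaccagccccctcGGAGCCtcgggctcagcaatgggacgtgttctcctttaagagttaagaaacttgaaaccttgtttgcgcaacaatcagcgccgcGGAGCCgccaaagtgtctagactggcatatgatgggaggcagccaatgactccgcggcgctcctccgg
The Id2 promoter holds 1 match to GGCGCC and 1 to GGAGCC, the Id3 promoter 1 to GGAGCC and 2 to GTCTG, and the Smad6 promoter 2 to GGAGCC. Of the others, Bmp4 has 1 match to GGAGCC, and Bmpr1a and Bmpr2 have 1 each to GGCGCC. A match describes the sequence and does not show that a Smad binds it in these cells. The mm9 positions are 25780908 to 25781207 on chromosome 12 for Id2, 135699487 to 135699786 on chromosome 4 for Id3, and 63869817 to 63870116 on chromosome 9 for Smad6. The start used for Id3 lies 325 bases inside the gene as placed by GENCODE M1, and those of Id2 and Smad6 lie at the gene's start there.

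For each of the 10 genes, 1 or 2 genes with the most similar course are given, by Pearson's r of log2 normalized CPM over the 12 libraries, which share their 2 lines and 3 days. They were Vsir (0.988) and Rhbdl3 (0.987) for Bmp2, Lrrc2 (0.996) and Pum3 (0.996) for Bmp4 and Scube1 (0.996) and Sall2 (0.996) for Bmp7. For the receptors they were Smug1 (0.991) and Fzd3 (0.989) for Bmpr1a and Trio (0.990) and Zkscan1 (0.990) for Bmpr2. Id1 had the lowest values, with Cd81 (0.906) and Pdlim2 (0.896), while Id2 had Tmem9b (0.987) and Ssbp2 (0.986) and Id3 Tmem9 (0.997) and Ltbr (0.997). Smad6 was most like Ist1 (0.997) and Hand2 (0.996), and Nog most like Hoxd13 (0.960). Between the members themselves, r was 0.984 for Id3 with Smad6 and −0.984 for Bmp4 with Bmp7, and that of Id1 with each other member lay from −0.395 to 0.255.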

How the data were processed

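The values are counts: the authors selected poly(A) RNA, made directional libraries, checked reads with FastQC 0.11.2 and aligned them to mm9 with STAR 2.3.0e. They removed alignments with mapping quality under 10, mitochondrial alignments and non-chromosome contigs with SAMtools 0.1.19, and deposited featureCounts 1.6.2 counts per RefSeq gene, without normalization. The strand setting is not stated in the sources at hand. The libraries hold 11171111 to 27155553 counts.

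Counts were fitted in R 4.3.3 with edgeR 4.0.16 (quasi-likelihood, TMM, filterByExpr with minimum count 10) over all 12 libraries, with a mean for each of 6 groups and 6 residual degrees of freedom. Every adjusted p is from this fit, by Benjamini-Hochberg over all 15532 genes tested, unless another tool is named. A gene was called at an adjusted p under 0.05 and at least 1.5-fold (0.585 on the log2 scale). Contrasts were days within lines, lines within days, the mean of the lines' differences over the days, and the difference of each such change between lines. Normalized CPM are counts scaled by library total and TMM factor. Likeness used log2 with 0.5 added.

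Members and lists were chosen with earlier results of these data known. All members were named; from the other pathway list, the 3 called genes with the highest and the 3 with the lowest log2 fold change in each comparison between days, and any called between lines. The rules, thresholds and alternatives were written down with those results known. Alternatives were DESeq2 1.42.0, limma-voom (limma 3.58.1) with library weights, RLE normalization, no filter or at least 1 CPM in 2 libraries, no fold cutoff or a log2 cutoff of 1.5, only the libraries compared, a replicate block, omission of both shCTSL Day 2 libraries, and omission of each library in turn. The fit was also run on simulated data, and no value given here comes from that run. Positions and exonic lengths come from GENCODE M1, and figures from Python 3.11.15, pandas 2.3.3 and matplotlib 3.10.9.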

Additional observations from a re-analysis of the deposited data

How the results depend on the processing

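Of the 109 log2 fold changes given by edgeR, 77 were called, and 2, not called, changed sign. That of Bmpr2 in shCTSL Day 2 against Day 0 ranged from −0.26 without shCTSL Day 2 replicate 2 to 0.70 without replicate 1, and that of Bmp7 between the lines at Day 2 from −0.70 without replicate 2 to 0.0471 without replicate 1. RLE normalization and a filter of at least 1 CPM in 2 libraries changed no call among them, the replicate block lost 5 (Id1 averaged over days, Bmp2 in Day 4 against Day 2 in both lines, Bmpr2 in the same step in shSC and Ctsl between the lines at Day 2), and a fit of only the libraries compared lost 6 and added 6. DESeq2 added 4 calls and lost 0, no filter on low counts added 2, and limma-voom lost 5 and added 6. Leaving out 1 library at a time, which leaves a lone library assumed to vary like the other groups, gave 1308 values, of which 63 lost and 22 gained a call. Members called then ranged over 7 to 8 (8 with all libraries) for shSC Day 2 against Day 0, 2 to 6 (6) for Day 4 against Day 2 and 9 to 9 (9) for Day 4 against Day 0. In shCTSL the ranges were 6 to 8 (6), 2 to 6 (5) and 8 to 9 (9). Between the lines they were 0 to 2 at Day 0, 0 to 4 at Day 2, 0 to 2 at Day 4 (0 on each with all libraries) and 0 to 2 averaged over days (1), and in the line differences 0 to 3 for Day 2 against Day 0, 0 to 1 for Day 4 against Day 2 and 0 to 1 for Day 4 against Day 0 (0 in each). With a log2 cutoff of 1.5, which by construction calls fewer genes, 5 members were called in shSC Day 2 against Day 0, 1 in shSC Day 4 against Day 2, 1 in shCTSL Day 4 against Day 2 and 0 averaged over days. No fold cutoff gave 2 averaged over days. In shCTSL Day 4 against Day 2, limma-voom called 2 and a fit of only the libraries compared 1, against 5; Bmp2, Bmpr2 and Nog were lost in both, and Id2 in the latter. Between the lines at Day 0, where 0 members were called, DESeq2 called 1 and limma-voom, only the libraries compared and the omission of both shCTSL Day 2 libraries 2 each. At Day 4 these 4 gave 2 each and no filter 1. For the line difference in Day 4 against Day 0, limma-voom, only the libraries compared and the omission of both shCTSL Day 2 libraries gave 1 each, against 0. The cause was not tested.

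Over all genes, calls at Day 0 between the lines numbered 6, against 48 by DESeq2, 254 by limma-voom, 29 with no filter, 269 with only the libraries compared, 212 without both shCTSL Day 2 libraries, 211 without replicate 1 of them and 214 without replicate 2. At Day 2 the 10 calls became 125 by DESeq2, 0 by limma-voom, 60 with no filter, 2 with the log2 cutoff of 1.5, 0 with only the libraries compared, 96 without shCTSL Day 2 replicate 1 and 5012 without replicate 2. At Day 4 the 2 calls became 132 by DESeq2, 723 by limma-voom, 119 with no filter, 711 with only the libraries compared, 909 without both shCTSL Day 2 libraries, 926 without replicate 1 and 924 without replicate 2. Averaged over days the 42 became 128 by DESeq2, 128 by limma-voom, 185 with no filter, 71 with no fold cutoff, 3 with the log2 cutoff of 1.5, 121 without shCTSL Day 2 replicate 1 and 1217 without replicate 2, and 7 to 12 without any other 1 library. Without any 1 library other than these, the counts were 0 to 4 at Day 0, 0 to 4 at Day 2 and 0 to 7 at Day 4. In the line differences for Day 2 against Day 0, Day 4 against Day 2 and Day 4 against Day 0 the 0, 0 and 1 became 24, 11 and 28 by DESeq2, 2, 0 and 130 by limma-voom, 4, 0 and 7 with no filter, 0, 0 and 149 with only the libraries compared, 301, 567 and 259 without shCTSL Day 2 replicate 1, 4124, 2323 and 268 without replicate 2, and in the last of them 258 without both. In shCTSL Day 4 against Day 2 the 3630 became 1255 by limma-voom, 1201 with only the libraries compared, 6213 without its Day 2 replicate 2, 2346 without its Day 4 replicate 1, and in shSC Day 4 against Day 2 the 3689 became 2390 without shSC Day 4 replicate 1. The log2 cutoff of 1.5 left 3844 of 8477, 1462 of 3689 and 4778 of 9435 calls in shSC and 3981 of 8627, 1312 of 3630 and 4697 of 9296 in shCTSL, for Day 2 against Day 0, Day 4 against Day 2 and Day 4 against Day 0.

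Whether the replicate numbers pair the libraries is not stated in the sources at hand. Over 15 pairs of groups the correlation of the replicates' differences ran from −0.465 to 0.257, with 2 over 0.1. These correlations do not settle whether libraries of the same number share a batch. With the replicate block, members called were 0 averaged over days (1 without it), 4 in shSC Day 4 against Day 2 (6), 4 in shCTSL Day 4 against Day 2 (5) and the same number in the other 10 comparisons. Genes called between the lines at Day 2 were 0 with the block and 10 without it, and averaged over days 13 and 42. Depth limits the values of Nog, of Bmp2 at Day 0 and of the genes with few counts in the wider list.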
